A study of Ovis aries with 3 samples.

Results

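Whole embryos of Hulunbuir short-tailed sheep (HSTS) and of Hu sheep (HS), a breed with a longer tail, were compared at day 19 after insemination. The comparison rests on E19 HSTS and E19 HS cells with 200 to 6000 detected genes, 1000 to 30000 unique molecular identifiers (UMIs, each 1 counted RNA molecule) and at most 10% mitochondrial UMIs. These were 20247 of the 31576 such cells in the series, namely 9618 of 11114 deposited barcodes in E19 HSTS and 10629 of 12064 in E19 HS. The HSTS animals genotyped by the study were homozygous for the short-tail mutation in the coding sequence of *T*, and the HS animals carried the wild-type allele. Each day 19 library comes from 1 embryo, and no other treatment separates the groups. All embryos were dissociated with collagenase, the cells were put through red blood cell lysis, and RNA was counted at its 3′ end in droplets. Breed, *T* genotype, single embryo, library and exact developmental stage therefore cannot be told apart, and no test of a difference between the breeds was possible. Hu sheep at day 16 (E16 HS, 11329 cells) are given only side by side. The labels name 1 embryo for that library and the study's methods 3, so it may be a pool.

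At this stage a sheep embryo is laying down somites, the heart beats, primitive red cells from the yolk sac fill the circulation, and the body axis is extended by progenitors in the tail bud. *T* (brachyury) encodes the transcription factor that maintains these axial progenitors, with WNT and FGF ligands made in the same place. HOX genes mark position along the axis and are switched on in order, the high paralogue numbers last and most caudally.

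Levels are UMIs of a gene per 1000000 UMIs (CPM), summed over the cells of a library. A ratio is the level in E19 HSTS divided by that in E19 HS, and a log2 ratio is its base 2 logarithm, above 0 where E19 HSTS was higher. Brackets after a ratio hold its exact interval at the 95% level. All intervals here cover counting error only, and say nothing of how 2 embryos of 1 breed differ. Depth summed to 99580051 UMIs over the kept E19 HSTS cells and 88733467 over those of E19 HS. Only 33 kept barcodes occurred in both libraries, and no doublets were removed.

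Red cells made up a larger share of E19 HSTS. Cells with at least 5 UMIs of *AHSP*, which encodes the chaperone of alpha globin, and at least 2 of *ALAS2*, the first enzyme of haem synthesis in red cells, accounted for 25.5% (24.6 to 26.3%) in E19 HSTS and 12.3% (11.7 to 12.9%) in E19 HS. In E16 HS the share was 16.4% (15.7 to 17.1%). Their median depth was close between the breeds, 18071.5 UMIs in E19 HSTS against 18210 in E19 HS. Drawing 3000 UMIs from each cell, which dropped 1106 and 1345 cells of lower depth, gave 4.76% and 1.91%. The lysis step acts on these very cells, and its part in the shares was not tested.

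Because red cells are deep, they held 44.7% of all UMIs in E19 HSTS against 27.4% in E19 HS. The 10 most abundant genes took 31.0% of all UMIs in E19 HSTS against 20.8% in E19 HS, but 9.14% and 10.2% once red cells were left out. A CPM over all cells thus has a different base in each library. Every comparison was therefore made over all kept cells, over the other cells alone (7170 and 9324) and over the red cells alone.

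**Figure D1:**
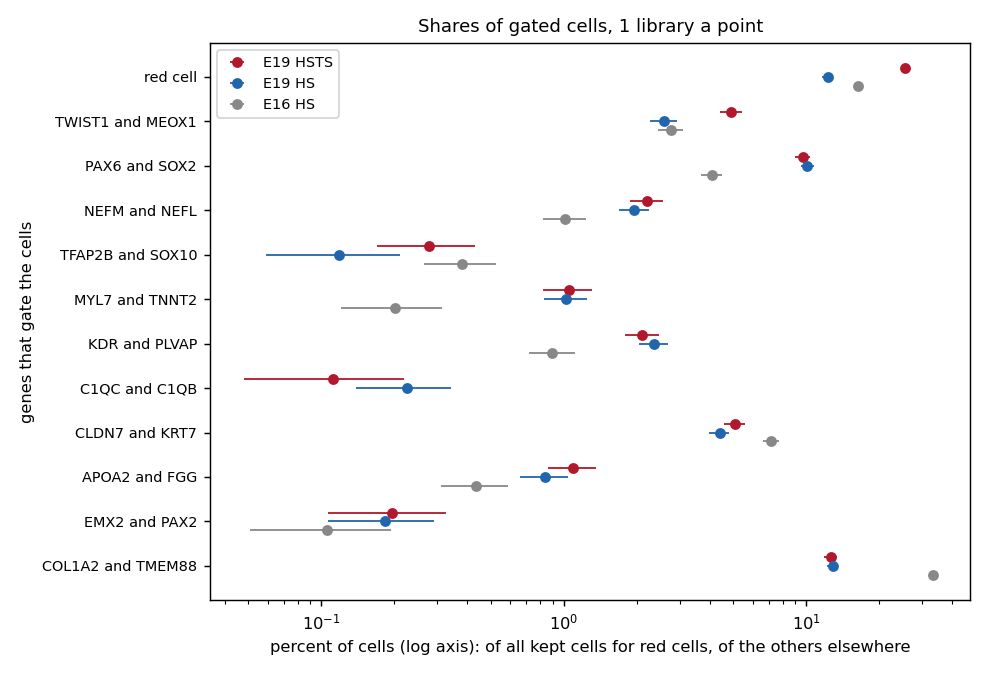
Shares of gated cells in each library, on a log axis in percent of all kept cells for red cells and of the other cells for the remaining gates. Points are single libraries, bars are exact binomial 95% intervals, and a gate with no cell has no point. E19 HSTS lies above E19 HS for red cells (25.5% against 12.3%) and for cells with *TWIST1* and *MEOX1* (4.91% against 2.58%).

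Among the cells other than red cells, those with both *TWIST1* and *MEOX1*, transcription factors of the somites, formed the single gate whose intervals did not overlap between the breeds. They made up 4.91% (4.42 to 5.44%) in E19 HSTS and 2.58% (2.27 to 2.93%) in E19 HS. Red cells, which should lack the pair, showed it in 0.654% and 0.460%, at a median depth above that of the gated cells (8403.5 and 7386 UMIs). The thinned shares were 1.37% (1.09 to 1.69%) and 0.852% (0.662 to 1.08%). Shares of cells with *PAX6* and *SOX2*, factors of neural progenitors, overlapped at 9.65% and 10.1%. Cells with *NEFM* and *NEFL*, neurofilaments of early neurons, also overlapped at 2.2% and 1.95%.

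Cells with *KDR* and *PLVAP*, genes of endothelium, made up 2.11% and 2.35%, with overlapping intervals, and 1.24% (0.974 to 1.55%) and 1.83% (1.55 to 2.15%) after thinning. Cells with *COL1A2* and *TMEM88* made up 12.6% and 12.9%, and 5.11% (4.57 to 5.70%) and 6.57% (6.03 to 7.13%) after thinning. After thinning both shares were lower in E19 HSTS, with intervals that met for *KDR* and *PLVAP* and did not overlap for *COL1A2* and *TMEM88*. Cells with *MYL7* and *TNNT2*, contractile proteins of heart muscle, numbered 75 and 95, at median depths of 12498 and 6655 UMIs. The ratio of their shares was 1.03, but 0.530 under a stricter cell filter (500 genes, 5% mitochondrial UMIs) and 1.42 after thinning. Cells with *APOA2* and *FGG*, plasma proteins made by yolk sac and liver, numbered 78 in each library. Their shares were 1.09% (0.861 to 1.36%) and 0.837% (0.662 to 1.04%), with overlapping intervals. The ratio of these shares was 1.30, with 1.33 to 1.52 over the alternatives.

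Over all kept cells, 15120 genes had at least 10 UMIs. Of these, 510 were at least 2-fold higher in E19 HSTS (3.37%) and 697 at least 2-fold lower (4.61%). Without red cells 14888 genes could be compared, with 724 higher (4.86%) and 409 lower (2.75%). Counts of 2-fold members in the lists outside red cells are to be read against these shares. Of the 724 genes, 379 were also 2-fold higher over all cells, and of the 409 genes, 388 were also 2-fold lower. Genes of low counts made up most of these, since a minimum of 100 UMIs left 168 higher and 96 lower of 10838. A lower level in these sums can be fewer cells of a type or less RNA in each, and these cannot be told apart from the sums alone.

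The middle of all genes was not at 0. Without red cells the median log2 ratio of all genes was 0.22, against -0.06 over all cells. A gene with a log2 ratio of 0.22 in the other cells is therefore an average gene, and lists are set against that median below. Both other scalings of the library totals, by the trimmed mean of gene ratios (TMM) and by their median, move this centre to about 0. Counts of 2-fold members in the lists can change with them, also where this is not repeated below. Under both, the tail bud, neural progenitor, myeloid, interferon response and retinoic acid lists had 3 members 2-fold lower, in place of 2. The segmentation and endothelium lists had 2 lower in place of 1, and nuclear oxidative phosphorylation 1 in place of 0.

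**Figure D2:**
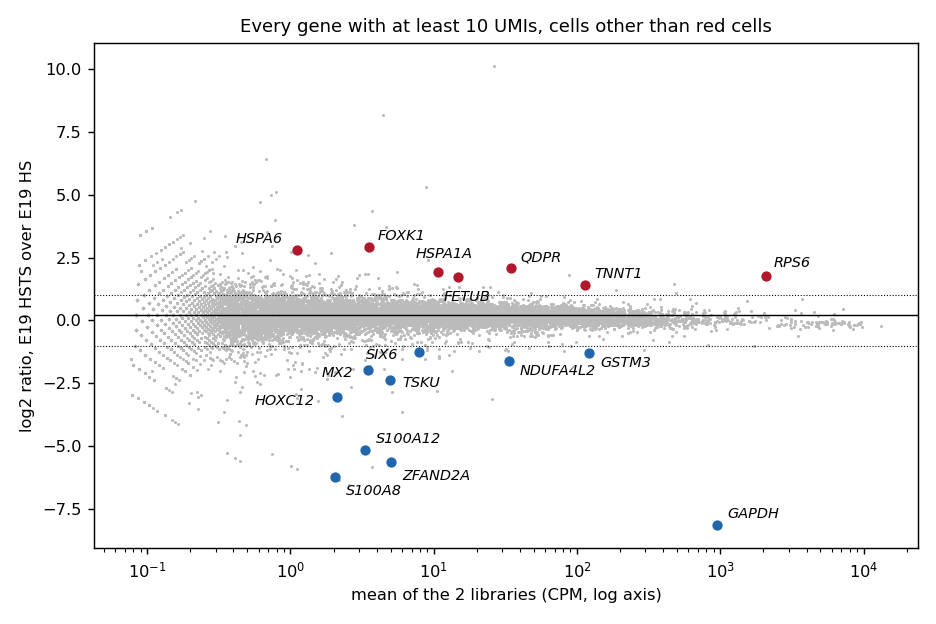
Each point is a gene with at least 10 UMIs in cells other than red cells, placed by its mean CPM (log axis) and its log2 ratio of E19 HSTS over E19 HS. The solid line is the median of all genes at 0.22, dotted lines mark 2-fold, and coloured points are genes named in the text, such as *QDPR* at 2.07 and *ZFAND2A* at -5.63.

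A small set of genes differed by at least 2-fold in every gate that could be measured. Across the 9 gates with at least 50 cells in both libraries, 4483 genes could be measured in 6 gates or more. Only 4 of them were 2-fold higher in E19 HSTS in every gate where they were measured, and only 2 were 2-fold lower. *RPS6*, a protein of the small ribosomal subunit, had 3229 CPM in E19 HSTS against 951 CPM in E19 HS outside red cells, a ratio of 3.40 (3.37 to 3.43), with log2 ratios of 1.63 to 2.07 over the gates. *HIST2H2AC*, a replication-type histone H2A gene, had 666 and 314 CPM, a ratio of 2.12 (2.09 to 2.16). The remaining higher genes carry no symbol, and the one with the larger ratio, ENSOARG00020009346, had 2879 UMIs in E19 HSTS against 3 in E19 HS. Of the lower ones, ENSOARG00020018534 had 290 and 2937 UMIs, and the other was *GAPDH*, with log2 ratios of -8.47 to -7.41 over the gates. In E16 HS the level of *RPS6* was 2174 CPM, nearer to E19 HSTS than to E19 HS.

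*RPS6*, *GAPDH* and histone genes have near-identical copies in mammalian genomes, and counting can split reads among copies, so these values are uncertain. No other cytosolic ribosomal protein gene shared the direction of *RPS6* at this size. Of 48 measured, *RPS6* was the single one past 2-fold, 9 were above 0, and their median log2 ratio was -0.12. Only 3 lay above the median of all genes outside red cells. Less that median the list stood at -0.33, with -0.34 to -0.32 over the alternatives.

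Further genes stood apart by size alone. *QDPR*, which recycles the tetrahydrobiopterin cofactor of aromatic amino acid hydroxylases, had 3075 UMIs in E19 HSTS against 857 in E19 HS outside red cells, a ratio of 4.20 (3.89 to 4.53). In red cells it had 537 and 51 UMIs, a ratio of 5.76 (4.32 to 7.83), so its direction was the same in both. *FOXK1*, a forkhead transcription factor, had 342 and 53 UMIs, a ratio of 7.54 (5.64 to 10.3). *CTDSPL* and *MOSPD1* had ratios of 3.59 (2.85 to 4.57) and 3.18 (2.49 to 4.10). In E16 HS, *FOXK1* stood at 9.27 CPM, above both day 19 libraries (6.21 and 0.823 CPM).

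In the other direction, *ZFAND2A*, a zinc finger gene induced by arsenite and heat, had 11 UMIs in E19 HSTS against 638 in E19 HS outside red cells, and 8 and 427 in red cells. Its ratios were 0.0202 (0.0100 to 0.0363) and 0.0103 (0.00440 to 0.0204). It was present in 0.153% of the other cells in E19 HSTS and in 6.35% in E19 HS. *TSKU*, a secreted protein that binds growth factors, had a ratio of 0.193 (0.152 to 0.242), and *CIART*, a repressor of the circadian clock, 0.287 (0.225 to 0.363). *GSTM3*, a glutathione transferase, had 70.4 and 173 CPM, a ratio of 0.408 (0.393 to 0.423).

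Some symbols were listed at 0 in one library. *ANKAR* had 0 UMIs in E19 HSTS against 63 in E19 HS outside red cells. Several rows share the symbol *U1* and several *RIDA*. A row of *U1* had 81 and 0 UMIs, and a row of *RIDA* had 88 and 0. With 0 set to 3 UMIs, these correspond to log2 ratios of -4.17 or lower for *ANKAR*, and of 4.98 and 5.10 or higher for *U1* and *RIDA*.

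**Figure D3:**
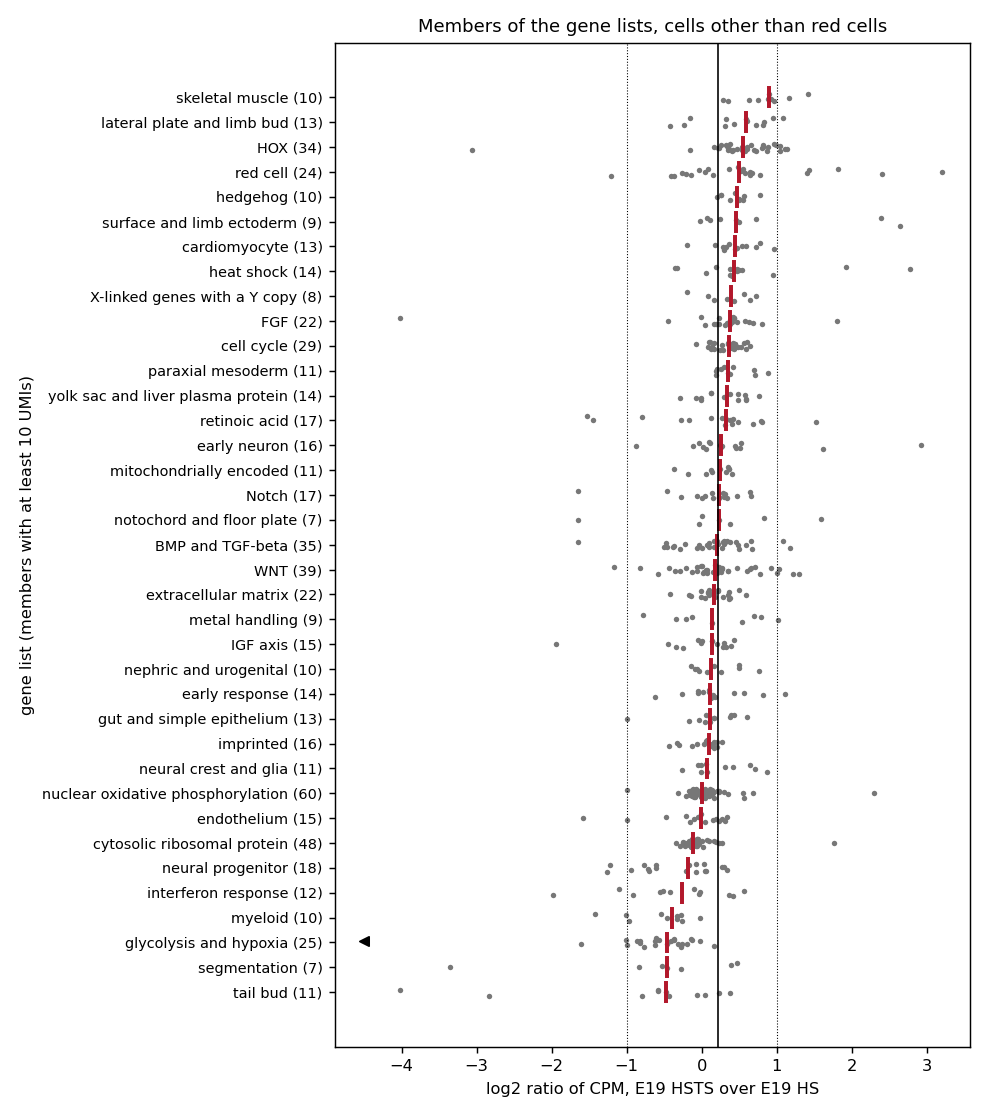
Log2 ratios of list members with at least 10 UMIs, in cells other than red cells, for lists with at least 7 such members (number in brackets). Grey points are genes, red bars are list medians, the solid line is the all-gene median at 0.22, dotted lines mark 2-fold, and the arrowhead is *GAPDH* beyond the axis. Skeletal muscle has the highest list median (0.89) and the tail bud list the lowest (-0.48).

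Glycolysis and its oxygen-regulated partners stood lower in E19 HSTS almost throughout. Of 25 genes measured outside red cells, 3 were at least 2-fold lower, where 2.75% of all genes were. Of the list, 0 were 2-fold higher, and 0 lay above the median of all genes. The median log2 ratio of the list was -0.45. *NDUFA4L2*, a mitochondrial protein induced by low oxygen, had 16.4 CPM in E19 HSTS against 50.1 CPM in E19 HS, a ratio of 0.328 (0.305 to 0.354). It was detected in 9.68% and 23.7% of these cells, and in 1.02% and 3.14% of the deeper red cells. *PDK1*, the kinase that keeps pyruvate from entering the citric acid cycle, had 15.7 and 31.5 CPM, a ratio of 0.498 (0.460 to 0.540). *GAPDH*, a glycolytic enzyme, was the remaining 2-fold lower member and differed most. With TMM scaling or the median of gene ratios, 7 of the 25 were 2-fold lower.

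*GAPDH* apart, the enzymes of glycolysis that are given here stayed within 2-fold. *PGK1* had a log2 ratio of -0.76, *LDHA* of -0.63 and *ALDOA* and *ENO1* of -0.45 each. *PKM* alone was above 0, at 0.17. In red cells 5 of 23 members were 2-fold lower, where 4.08% of all genes were, among them *LDHA* with 510 and 944 UMIs, a ratio of 0.296 (0.265 to 0.330). In E16 HS, *NDUFA4L2* stood at 96.0 CPM and *PGK1* at 595 CPM, both above either day 19 library. Nuclear genes of oxidative phosphorylation had a median of 0.00 over 60 genes, with 1 past 2-fold. Only 8 of them lay above the median of all genes, and less that median the list stood at -0.21, with -0.24 to -0.19 over the alternatives.

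HOX genes lay together on the higher side. Of 34 measured outside red cells, 32 had a log2 ratio above 0 and 31 above the median of all genes, with a list median of 0.56. Past 2-fold were 4 higher and 1 lower, where 4.86% and 2.75% of all genes were. The higher ones were *HOXC11* with 77 UMIs in E19 HSTS against 41 in E19 HS, *HOXB5* with 111 and 60, *HOXD10* with 149 and 84, and *HOXC5* with 456 and 258. Their ratios ran from 2.07 to 2.2, and with TMM scaling or the median of gene ratios 0 HOX genes were 2-fold higher and 1 was lower. The list median was then 0.35 or 0.33. Summed over each cluster, the ratios were 1.30 (1.27 to 1.33) for HOXA, 1.44 (1.39 to 1.49) for HOXB, 1.35 (1.29 to 1.40) for HOXC and 1.51 (1.41 to 1.61) for HOXD.

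By paralogue group the ratios were uneven along the axis. Group 1 had a ratio of 1.73 (1.41 to 2.12), group 6 of 1.75 (1.66 to 1.85), group 10 of 1.91 (1.63 to 2.24) and group 13 of 1.68 (1.31 to 2.17). Groups 3, 4 and 7 stood at 1.16, 1.29 and 1.19, near the median ratio of all genes (1.16). Group 12 stood at 0.141 (0.0931 to 0.206), through *HOXC12*, while its other gene *HOXD12* had 5 UMIs in each day 19 library. Group 2 stood at 0.958 (0.889 to 1.03), through *HOXA2* with 1010 and 1318 UMIs. Over all kept cells, red cells included, the list median was 0.20, with 0 higher and 1 lower past 2-fold.

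**Figure D4:**
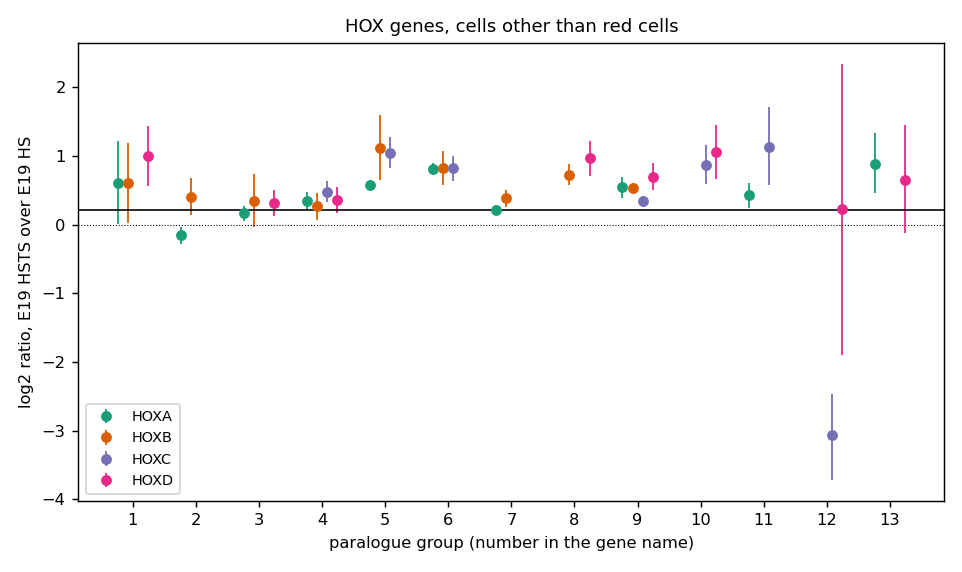
Log2 ratio of E19 HSTS over E19 HS for each HOX gene with at least 10 UMIs in cells other than red cells, by paralogue group and coloured by cluster. Bars are exact 95% counting intervals, the solid line is the all-gene median at 0.22 and the dotted line is 0. All but *HOXA2* and *HOXC12* lie above 0, and *HOXC12* lies at -3.06.

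*HOXC12*, one of the most caudal HOX genes, was the exception. It had 25 UMIs in 19 cells of E19 HSTS and 244 UMIs in 81 cells of E19 HS outside red cells, a ratio of 0.120 (0.0760 to 0.181). These were 0.265% (0.160 to 0.414%) and 0.869% (0.691 to 1.08%) of the cells, where red cells showed it in 0.0817% and 0.0766%. No single cell carried the difference, since the highest held 8 UMIs. In E19 HS, 41 of the 81 cells also had *CDX2* and 41 had *FGF8*, against 1.26% and 2.59% of the cells without *HOXC12*, and 14 had *T*. In E19 HSTS, 6 of the 19 cells had *CDX2*, 5 had *FGF8* and 0 had *T*.

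In E19 HS, *HOXC12* thus lay often in cells with other caudal genes. Of 11 tail bud genes measured outside red cells, 0 were 2-fold higher and 2 were 2-fold lower, where 2.75% of all genes were lower. The median log2 ratio of the list was -0.48. *FGF17*, a ligand of the FGF8 family, had 2 UMIs in E19 HSTS against 38 in E19 HS, a ratio of 0.0615 (0.00719 to 0.238), against 380 in E16 HS. *T*, the other 2-fold lower member, had 6, 50 and 216 UMIs in the same order. *CYP26A1*, which degrades retinoic acid around the tail bud, had 35, 71 and 307 UMIs, and *CDX4* had 51, 83 and 809.

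Other caudal genes had as many or more UMIs in E19 HSTS. *CDX2* had 229 UMIs in both day 19 libraries, a somewhat higher CPM in E19 HSTS, whose other cells held fewer UMIs. *SALL4* had 612 and 551, and *HOXA13*, the most caudal gene of its cluster, had 117 and 74, a log2 ratio of 0.89. Of the segmentation genes, *MSGN1*, a factor of presomitic mesoderm, had 1 UMI in E19 HSTS against 12 in E19 HS, a ratio of 0.0974 (0.00228 to 0.659). *LFNG*, a modifier of Notch in the segmentation clock, had 280 and 450, while *DLL1*, a Notch ligand, had 856 and 722. *MSGN1* was the 1 member of 7 past 2-fold in this list, whose median was -0.46. *T*, *FGF17*, *CDX2*, *CDX4* and *CYP26A1* had more UMIs in E16 HS than in either day 19 library.

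Skeletal muscle genes stood on the higher side. All 10 skeletal muscle genes measured outside red cells lay above the median of all genes, with a list median of 0.89. Of them 2 were past 2-fold, where 4.86% of all genes were 2-fold higher. The 2 were *TNNT1* and *ACTA1*, of which *ACTA1* had log2 ratios of 0.96 with TMM scaling and 0.94 with the median of gene ratios. *TNNT1*, slow skeletal troponin T, had 165 CPM in E19 HSTS against 61.8 CPM in E19 HS, a ratio of 2.68 (2.58 to 2.78). It was detected in 31.5% (30.4 to 32.6%) and 16.7% (16.0 to 17.5%) of these cells, and in 3.88% and 2.53% of red cells. In E16 HS it stood at 80.5 CPM and was detected in 35.6% of the other cells. *ACTA1*, skeletal alpha actin, had 332 and 173 UMIs. *PAX3*, which marks muscle progenitors among others, had 2146 and 1491 UMIs, a ratio of 1.68 (1.57 to 1.80), and *MYF5*, the first myogenic regulator, had 72 and 45.

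*TNNT1* was also found in cells with neural genes. Of the cells with it, 40.1% in E19 HSTS against 43.8% in E19 HS also had *SOX2*, where 23.3% and 29.2% of the cells without *TNNT1* did at lower median depths (6646 and 6140 UMIs against 8066 and 7503), and 2.35% and 1.99% had *MYF5*. In cells with *TWIST1* and *MEOX1* it had 890 and 116 UMIs, in cells with *PAX6* and *SOX2* 946 and 373, and in cells with *NEFM* and *NEFL* 101 and 85. The last gate showed a log2 ratio of 0.13, against 2.24 and 1.69 in the others. Paraxial mesoderm genes as a list had a median of 0.35, with 8 of 11 above the median of all genes and 0 past 2-fold.

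Limb and flank genes followed the same side. The list of lateral plate and limb bud genes had a median of 0.60, with 10 of 13 above the median of all genes and 1 past 2-fold, the homeobox gene *SHOX2* with 40 and 22 UMIs. With TMM scaling or the median of gene ratios 0 of the list were past 2-fold. *TBX5*, the forelimb factor, had 101 and 61 UMIs, *TBX4*, the hindlimb factor, 126 and 83, and *PITX1*, upstream of *TBX4*, 399 and 281. *TBX3* had 495 and 328, and *MSX1* was lower with 55 and 76. Heart genes had a list median of 0.44 over 13 genes, with 0 past 2-fold. Less the median of all genes this was 0.22, and it ran from -0.18 to 0.23 over the alternatives, so its side was not stable.

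Neural progenitor genes stood on the lower side, with a median of -0.19 over 18 genes. Of these, 2 were 2-fold lower and 0 higher, where 2.75% and 4.86% of all genes were. *SIX6*, a factor of the eye field and pituitary, had 255 UMIs in 53 cells of E19 HSTS and 712 in 136 cells of E19 HS, a ratio of 0.419 (0.362 to 0.484). Of these cells, 92.5% and 81.6% had *SOX2*. The forebrain and eye factors *SIX3*, *RAX* and *OTX2* had log2 ratios of -0.72, -0.71 and -0.77, but at most 48 UMIs in a library and intervals that included equal levels. *FABP7*, a lipid carrier of radial glia, had 1666 and 2966 UMIs, while *PAX6* and *SOX2* had log2 ratios of -0.20 and -0.17. *SST*, which encodes somatostatin, had 672 UMIs in 46 cells and 1437 in 71 cells. A single cell held 38.7% of the *SST* UMIs in E19 HSTS against 21.4% in E19 HS.

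Signalling pathways as lists lay close to the median of all genes. Over all genes outside red cells, 4.86% were 2-fold higher and 2.75% lower. Of 39 WNT genes, 4 were 2-fold higher and 1 lower, with a median of 0.17, and *WNT16* had 80 and 38 UMIs. With TMM scaling 2 WNT genes were higher and 2 lower. Of 22 FGF genes, 1 was higher and 1 lower, with a median of 0.38. Of 35 BMP and TGF-beta genes, 2 were higher and 1 lower, with a median of 0.20. Within the last list, the BMP targets *ID1* and *ID3* had log2 ratios of -0.38 and -0.46, while the ligand *TGFB3* had 105 and 58 UMIs. With TMM scaling 0 genes of this list were higher and 1 lower.

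Of 17 retinoic acid genes, 1 was 2-fold higher and 2 were lower, where 4.86% and 2.75% of all genes were. *ALDH1A3*, a synthesising enzyme of the developing eye, had 50 and 159 UMIs, a ratio of 0.368 (0.262 to 0.508), and *DHRS3*, which reduces retinal, had 108 and 44, a ratio of 2.87 (2.00 to 4.17). Hedgehog genes had a median of 0.47, with 9 of 10 above the median of all genes and 0 past 2-fold. Cell cycle genes had a median of 0.37, with 20 of 29 above the median of all genes and 0 past 2-fold.

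Myeloid genes were lower in E19 HSTS outside red cells. All 10 myeloid genes measured had a log2 ratio below 0, with a median of -0.40. Past 2-fold lower were 2, where 2.75% of all genes were. *TYROBP*, an adaptor of myeloid receptors, had 114 UMIs in 16 cells and 356 in 52 cells. Cells with *C1QC* and *C1QB*, complement genes of macrophages, numbered 8 and 21, so that their shares of 0.112% (0.0482 to 0.220%) and 0.225% (0.140 to 0.344%) overlapped. *S100A8* and *S100A12*, calcium-binding proteins of neutrophils and monocytes, had 3 and 10 UMIs in E19 HSTS and 260 and 417 in E19 HS. The E19 HS counts came from 13 and 12 cells, and 1 cell held 70.4% of the *S100A8* UMIs, so these values rest on few cells. Within red cells 5 of 8 myeloid genes were 2-fold higher in E19 HSTS, where 7.78% of all genes were. Their counts were low, such as 29 and 0 UMIs of *C1QB* and 19 and 4 of *AIF1*. Only 0.0817% of the red cells in E19 HSTS held both *C1QC* and *C1QB*.

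Of 12 interferon response genes outside red cells, 2 were past 2-fold lower, where 2.75% of all genes were, and the median was -0.26. *MX2* had 78 UMIs in 25 cells and 359 in 64 cells, a ratio of 0.254 (0.196 to 0.325), and *MX1* 621 and 1564, a ratio of 0.464 (0.422 to 0.510). *ISG15* had 460 and 1012. In E19 HS, 55 of the 64 cells with *MX2* had *MX1*, and 51 had *ISG15*. *MX2* thus lay mostly in cells that had *MX1* as well. In E16 HS, *MX1* had 177 UMIs and *MX2* 16.

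Within red cells 10504 genes could be compared, of which 817 were 2-fold higher in E19 HSTS (7.78%) and 429 lower (4.08%), with a median log2 ratio of 0.05. Some early response, heat shock and metal genes were among those that differed. *FOS*, an early response transcription factor, had 10558 UMIs in red cells of E19 HSTS, against 407 and 13 in those of HS at days 19 and 16. The day 19 ratio was 14.2 (12.9 to 15.7). *FOS* was found in 72.5% (70.7 to 74.3%) of these cells in E19 HSTS and in 15.9% (14 to 18%) in E19 HS. Outside red cells it stood at 205 and 151 CPM, a ratio of 1.35 (1.32 to 1.39), so the contrast was larger in red cells. *JUN*, its partner, had a ratio of 1.88 (1.75 to 2.01) in red cells. Of 14 early response genes there, 5 were 2-fold higher and 0 lower, with a median log2 ratio of 0.72. Besides *FOS* these were *FOSB* (53 and 0 UMIs), *JUND* at a ratio of 2.01 (1.61 to 2.52), *ATF3* and *ZFP36*. The intervals of *ATF3* (0.934 to 5.93) and *ZFP36* (0.731 to 30.2) included equal levels.

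Some heat shock genes were higher too. In the same order of libraries *HSPA1A* had 3745, 391 and 117 UMIs in red cells, a day 19 ratio of 5.24 (4.72 to 5.83). *HSPA6* had 887, 25 and 9, a ratio of 19.4 (13.1 to 30.2), and *DNAJB1*, their co-chaperone, 7902, 1400 and 914. Outside red cells *HSPA1A* had a ratio of 3.79 (3.32 to 4.35). Its ratio was above 1 in all 9 gates, red cells among them, the smallest being 1.17 (0.372 to 3.99) in cells with *MYL7* and *TNNT2*. Of 14 heat shock genes, 5 were 2-fold higher and 0 lower in red cells, where 7.78% and 4.08% of all genes were. However, 7 of the 14 had a log2 ratio below 0, among them *HSPH1* at -0.07, *HSPB1* at -0.21, *HSPA8* at -0.06 and *HSP90AB1* at -0.50. *ZFAND2A*, also induced by heat, was far lower in E19 HSTS, as given above. The median of the list in red cells was 0.03.

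**Figure D5:**
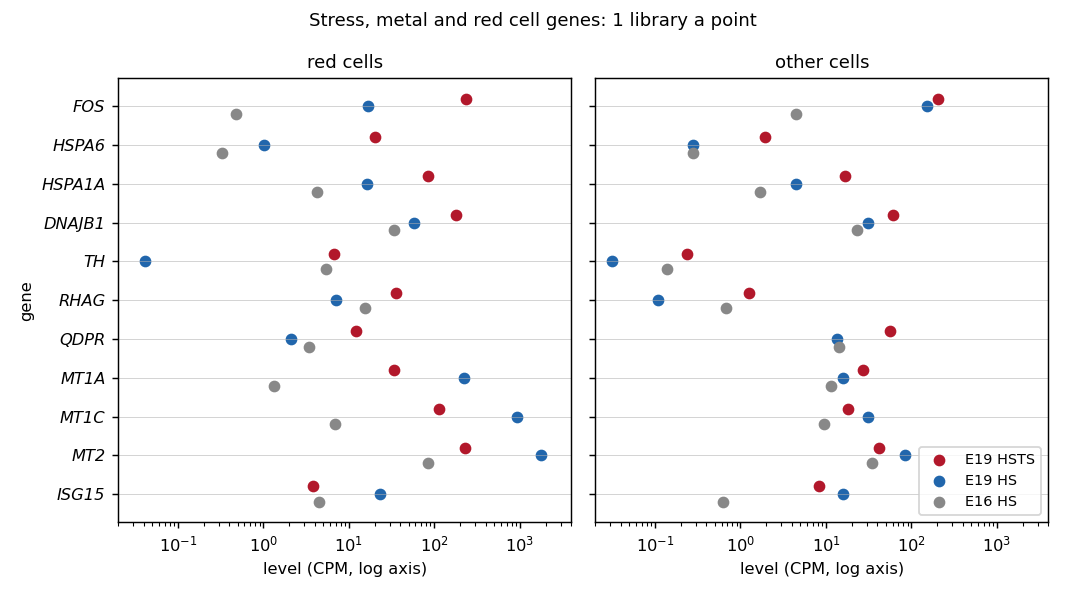
Levels of 11 genes in red cells (left) and other cells (right) on a log axis in CPM, with 1 point for each library. In red cells *FOS*, *HSPA6*, *HSPA1A* and *DNAJB1* lie highest in E19 HSTS, *MT1A*, *MT1C* and *MT2* lie highest in E19 HS, and *TH* is low in E19 HS only.

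Metallothioneins, small proteins that bind zinc and copper, showed the opposite. In red cells *MT1C* had 5095 UMIs in E19 HSTS against 22615 in E19 HS, a ratio of 0.123 (0.120 to 0.127), and *MT1A* had 1487 and 5348, a ratio of 0.152 (0.144 to 0.161). *MT2*, named after its values were seen, had 10251 and 43216 and was found in 59.9% and 96.4% of red cells. In E16 HS these genes had 189, 36 and 2298 UMIs. *SLC39A8*, an importer of zinc and other metals, had 5187 and 1545 UMIs, a ratio of 1.84 (1.74 to 1.95), and so did not go with the metallothioneins. The metallothionein genes resemble each other in sequence, so that the division of counts among them is uncertain, as for *HSPA1A* and *HSPA6*.

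*TH*, tyrosine hydroxylase, the first enzyme of catecholamine synthesis, was also singled out after its values were seen. It had 301 UMIs in 274 red cells of E19 HSTS, 1 UMI in 1 red cell of E19 HS and 148 UMIs in 138 red cells of E16 HS. These were 11.2% (9.97 to 12.5%), 0.0766% (0.00194 to 0.426%) and 7.43% (6.28 to 8.72%) of red cells. The ratio at day 19 was 165 (29.3 to 6524). Among the other cells it was present in 0.167%, 0.0215% and 0.127%. Red cells thus held most of it in E19 HSTS and E16 HS, while in E19 HS the other cells had 2 UMIs.

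Genes characteristic of red cells were called about as often as all genes in these cells. Of 24 red cell genes measured within red cells, 2 were 2-fold higher and 1 lower, with a median of 0.25, and the list includes *AHSP* and *ALAS2*, which chose the cells. The higher ones were *RHAG*, an ammonium channel of the red cell membrane, with 1590 and 174 UMIs, and *TRIM10*, with 123 and 12. *HBM*, a globin gene, was lower with 1450 and 1943 UMIs, a log2 ratio of -1.29. *HEMGN*, a nuclear factor of red cell precursors, and *EPB42*, of the membrane skeleton, had log2 ratios of 0.86 and 0.92, while *KLF1*, a transcription factor of red cells, had 0.04. Some of the most abundant rows in red cells carry no symbol in the files and are not named here. *ISG15* was lower in red cells too, with 167 and 559 UMIs, in 1.10% and 6.67% of them.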

How the data were processed

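Single-cell 3′ RNA libraries of HSTS (E19) and HS (E19 and E16) were analysed. The authors aligned the reads to Ovis_aries_genome_v1.0, counted UMIs with Cell Ranger 6.1.2 and deposited raw counts per gene and barcode, which were used without normalization. The kept cells held 99580051, 88733467 and 113213654 UMIs.

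UMIs were summed over cells and divided by the library total (CPM) in Python 3.11.15 (pandas 2.3.3, scipy 1.17.1, numpy 2.4.6). Ratios have exact conditional Poisson intervals and shares exact binomial (Clopper-Pearson) intervals at the 95% level, for counting error only. With 1 library a group there was no test. A gene at 0 was set to a floor of 3 UMIs. Called means at least 2-fold.

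Genes were named by size: the 15 largest ratios in each direction with at least 200 UMIs in the higher library, outside red cells. Added were the first 2 members and the 3 largest ratios in each direction of each list (at least 50 UMIs), the 10 largest CPM differences in each direction, genes at 0 in 1 library with at least 50 UMIs in the other, and the gate genes. Genes used only within red cells (*MT2*, *TH*, *TRIM10*), co-detected genes and list members given as context were chosen after their values were seen. The comparison, lists and gates were chosen with earlier results of these data known. Gates need at least 1 UMI of each gene, 3 for *MYL7* with *TNNT2* and *APOA2* with *FGG*, and 2 for *C1QC* with *C1QB*.

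Doublets were not removed, and leaving out the 8% of cells with the most UMIs was an alternative. Others were a filter of 500 genes and 5% mitochondrial UMIs, all barcodes, TMM scaling in edgeR 4.0.16 (R 4.3.3), the median of gene ratios, minima of 1 and 100 UMIs, equal weight per cell, thinning to 3000 UMIs, stricter gates and other definitions of red cells. The intervals and counts were tested on simulated sums drawn from the same Poisson model that the intervals assume. That check could not cover genes whose UMIs are clumped in few cells. Sequences and genome positions were not used here.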

Additional observations from a re-analysis of the deposited data

Results flagged for a closer look

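In 8 of the named genes, the ratio of E19 HSTS over E19 HS was at least 2-fold in opposite directions in different gated cells. Of the 4483 genes that could be measured in 6 gates or more, 18 were past 2-fold in both directions. The gates shown for the 8 genes were picked for their ratios, and no intervals are given with them. With 1 library a group these differences between kinds of cells were not tested. *DLK1*, an imprinted growth gene, had a ratio of 14.3 in cells with *MYL7* and *TNNT2* (55 and 3 UMIs) and of 0.143 in cells with *TWIST1* and *MEOX1* (26 and 112 UMIs). *ISG15* had a ratio of 2.48 in cells with *COL1A2* and *TMEM88* and of 0.0414 in cells with *APOA2* and *FGG* (2 and 48 UMIs). *LAMB1*, a laminin chain, had 3.50 in cells with *APOA2* and *FGG* and 0.303 in cells with *MYL7* and *TNNT2*.

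*MT1A* had a ratio of 207 in cells with *APOA2* and *FGG* (835 and 4 UMIs) and of 0.152 in red cells, and *MT1C* had 7.56 (335 and 44 UMIs) and 0.123 in the same cells. For *MT1A* and *MT1C* the difference described for red cells thus ran the other way in cells with *APOA2* and *FGG*, of which 78 were kept in each library. Outside red cells of E19 HSTS, 1 cell held 243 of the 988 *MT1C* UMIs, and whether it lay in this gate was not examined. Over all cells other than red cells, *MT1C* stood at 17.9 and 30.9 CPM and *MT2* at 42 and 84.95 CPM. Of 9 metal handling genes measured there, 1 was 2-fold higher and 0 were lower. *NEFM* had 2.27 in red cells and 0.190 in cells with *TWIST1* and *MEOX1*. Its level in red cells was 4.85 and 2.14 CPM against 106.7 and 102.2 CPM in the other cells. *TNNC1*, cardiac and slow muscle troponin C, had 17.2 in cells with *TWIST1* and *MEOX1* (196 and 7 UMIs) and 0.275 in cells with *APOA2* and *FGG*. *TTR*, transthyretin, had 6.09 in red cells (178 and 16 UMIs) and 0.401 in cells with *PAX6* and *SOX2*. The level of *TTR* in red cells was 4.00 and 0.657 CPM against 44.8 and 29.7 CPM in the other cells. Whether these low levels of *NEFM* and *TTR* in red cells are background was not tested.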

How the results depend on the processing

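The breed, the genotype, the embryo and the library are 1 and the same split of these data, and no spread between embryos is known. No paired analysis was possible because each group has 1 library and no test was made. A minimum of 100 UMIs left 131 genes higher and 183 lower over all cells, and 168 higher and 96 lower without red cells. A minimum of 1 UMI gave 614 lower without red cells. There, TMM scaling gave 481 higher and 582 lower and the median of gene ratios 480 and 656, in place of 724 and 409, so the balance of directions depends on the scaling. The median log2 ratio of all genes became 0.01 with TMM and -0.0089 with the median of gene ratios.

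The share of red cells in E19 HSTS and E19 HS was 29.2% and 14.1% with the stricter cell filter, 23.3% and 11.6% over all barcodes, 4.76% and 1.91% after thinning, 19.99% and 6.39% without the 8% of cells with the most UMIs, and 27.5% and 13.2% with 1 UMI of both genes. It was higher in E19 HSTS in each of these. Of 60 named genes past 2-fold without red cells, those with a value kept their direction under every alternative except *HBM*, whose log2 ratio was 0.021 with equal weight per cell, against -1.20. After thinning 49 of 57 were still past 2-fold, and 52 of 60 with TMM scaling and with the median of gene ratios. *HOXC11*, *HOXB5*, *HOXD10* and *ACTA1* were among those lost under both scalings.

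The alternative that took red cells as those with 2% of UMIs on the red cell list gave no value, since no cell reached that share (at most 1.76% and 0.929%). A share of 0.2%, chosen after seeing the data, took 2679 and 1441 cells. Leaving out the cell with the most UMIs of each gene, also chosen after seeing the data, kept all 60 past 2-fold.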

Other observations

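A fibroblast gene outside the lists, *FAP*, which encodes a surface protease of activated fibroblasts, had 1189 UMIs in 676 cells of E19 HSTS and 556 in 365 cells of E19 HS outside red cells, a ratio of 2.50 (2.26 to 2.77), and 88 UMIs in E16 HS. Of the cells with it, 87.6% and 79.5% had *COL3A1* and 59.3% and 55.1% had *TWIST1*. Matrix genes as a list did not share this, with 0 of 22 past 2-fold and a median log2 ratio of 0.16. *FAP* was singled out after its values were seen.

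In cells with *APOA2* and *FGG*, *FETUB*, a plasma protease inhibitor, had 1185 UMIs in E19 HSTS against 382 in E19 HS, which was most of its total of 1257 and 445. The plasma protein list had a median of 0.34 over 14 genes with 0 past 2-fold. In the IGF axis, *IGFBP1* had 24 and 108 UMIs, a ratio of 0.260 (0.160 to 0.407), while *IGF2* had a log2 ratio of 0.14. *NEUROD1*, a factor of neuronal differentiation, had 50 and 19 UMIs. Of the 16 early neuron genes measured outside red cells, *NEUROD1* among them, 2 were 2-fold higher, where 4.86% of all genes were, and 0 lower. The median of that list was 0.255, with 9 of its genes above the median of all genes. Of the trophoblast list only 4 genes could be measured, with 0 past 2-fold. Endothelial genes had a median of -0.01 over 15 genes with 1 past 2-fold lower, and neural crest and glial genes 0.07 over 11 with 0 past 2-fold. Imprinted genes had a median of 0.10 over 16, with 0 past 2-fold. These 3 medians lay below the 0.22 of all genes and were negative under both other scalings.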
